A study of Gallus gallus with 38 samples.

Results

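The SLC25 carriers of the broiler gut were compared between the mucosa of the jejunum and that of the cecum. Members were all genes whose own probe set carries a symbol starting with *SLC25A* in the platform annotation, 1 probe set per gene (that with the highest mean over all arrays). There were 28 such genes, of 11528 genes with a single symbol and 18308 probe sets in all. Family members without a probe set of their own, such as *SLC25A5* and *SLC25A12*, were not counted as members. A probe set shared by *SLC25A5* and *SLC25A6* is described below.

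SLC25 proteins are small membrane proteins of the mitochondrial inner membrane. They let metabolites, nucleotides and cofactors, which cannot cross that membrane alone, pass between the cytosol and the matrix, mostly by exchanging one substrate for another. Absorptive cells of the small intestine rely on mitochondria to burn glutamine, glutamate and fatty acids, and carriers feed these substrates in. Substrates named below are those known from mammals.

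Each of 19 male Ross 308 broilers gave a scraped sample of both mucosae at slaughter at 42 days of age, and each sample was run on an Affymetrix array that covers whole chicken transcripts (38 arrays). Diet did not differ between birds (a commercial feed changed with age), and neither did the vaccines given, which were directed at coccidia and at the viruses of infectious bronchitis and of Gumboro, Newcastle and Marek's disease. Birds carry the same number, from 1 to 19, in both tissues, and the tissue is the only factor that differs in the sample labels used. According to the paper, the birds came from several pens and were chosen for even body weight. Subjects with compromised RNA in either tissue were left out. The pen of a bird was not part of any fit or correlation below. Values are the log2 signals deposited by the authors, and every difference below is jejunum minus cecum. The fold change ratio (FCR) is 2 raised to the size of that mean difference, and a differentially expressed transcript (DET) has an FCR of at least 2 and an adjusted p under 0.05 from limma (a linear model with moderated variances, Benjamini-Hochberg adjustment over all probe sets).

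A scrape holds several cell types, and markers of these moved with the tissue. Of 13 markers of small intestinal enterocytes, 11 were DETs higher in the jejunum, while 5 of 5 smooth muscle, 4 of 5 fibroblast and 6 of 6 markers of dividing cells were DETs higher in the cecum. Over all probe sets, 3.68% and 3.62% were DETs in these directions. *CDX1* of the enterocyte list was called towards the cecum (difference -0.38, adjusted p = 4.6e-04 from limma). Of 8 markers of T and cytotoxic cells 4, and of 5 goblet cell markers 2, were DETs higher in the jejunum. Without a minimum FCR, 4 of 5 endothelial and 3 of 3 macrophage and granulocyte markers were called towards the cecum (25.1% of all probe sets). Of 5 enteroendocrine markers, 2 were DETs of the jejunum and 1 was a DET of the cecum. Calls towards jejunum and cecum (20.1% and 25.1% of all probe sets) were 1 and 2 of 4 for B and plasma cells. For enteric neurons and glia they were 1 and 3 of 5. The mean log2 signal of the enterocyte list lay between 8.98 and 10.97 on jejunal arrays and between 5.24 and 7.36 on cecal arrays. Dividing cell markers had mean log2 signals from 5.58 to 8.46 on jejunal arrays and from 7.73 to 8.88 on cecal arrays. In such a tissue sample, more cells of a type and more RNA per cell cannot be told apart, and the part of these markers in the differences below was not tested. The cecal array of bird 3 and the jejunal array of bird 19 stood apart from the other arrays of their tissue (r of 0.93 and 0.96 with the median of the others, against at least 0.97 for the rest).

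Among the carriers, 3 of 28 were DETs higher in the jejunum, with 3.68% of all probe sets called in that direction, and 0 of 28 were DETs higher in the cecum, with 3.62% of all probe sets called. No carrier reached 2-fold towards the cecum, whatever its p in limma. The 3 were *SLC25A16*, linked to coenzyme A, the glutamate carrier *SLC25A22* and *SLC25A48*, linked in mammals to choline import and left among the unassigned carriers here. Of these, *SLC25A48* had means under 5 in both tissues. Without a minimum FCR, 10 carriers passed limma's test towards the jejunum (20.1% of all probe sets did) and 8 towards the cecum (25.1% of all probe sets did), and 10 passed neither way. Of the 18 that passed, 15 differed by less than 2-fold. The carriers' median absolute difference was 0.38 on the log2 scale, against 0.19 over all probe sets, and their median signed difference was 0.05, against -0.03. All probe sets include 5752 without a symbol. A mean of at least 5 in either tissue was reached by 11718 of the 18308, and by 22 of 28 carriers. The part of annotation and signal level in the gap between the medians was not tested. Tissue differences of either direction were called for 64.3% of the carriers, 45.2% of all probe sets and 50.5% of the probe sets with a single symbol.

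**Figure D1:**
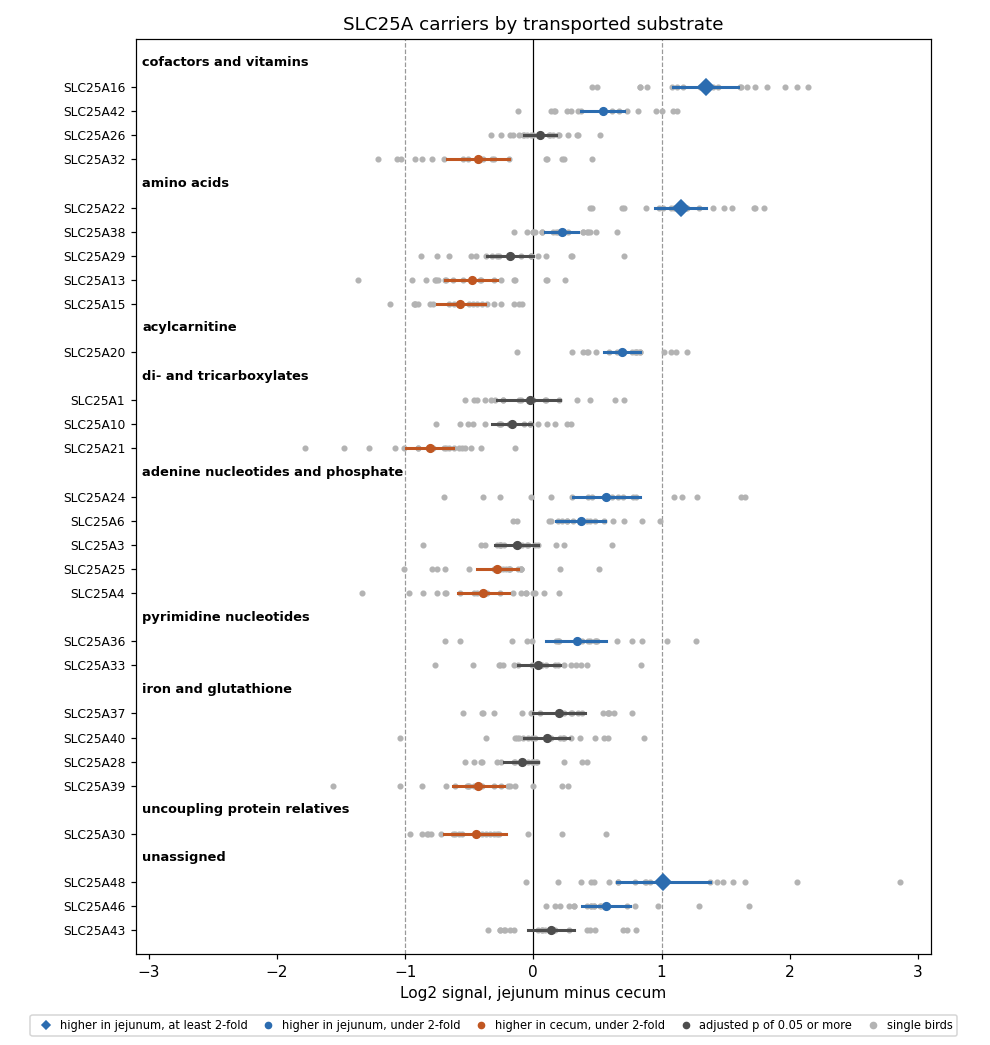
Difference in log2 signal (x axis, jejunum minus cecum) of the 28 carriers, grouped by substrate, with the mean and its 95% interval from limma (colored) and the 19 single birds (grey); dashed lines mark a 2-fold change. The 3 diamonds on the right are the DETs *SLC25A16*, *SLC25A22* and *SLC25A48*, and no carrier's mean reaches the line of a 2-fold change on the cecal side.

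*SLC25A16*, a carrier linked to the supply of coenzyme A to mitochondria, had the highest FCR of the family. Its jejunal log2 signals ran from 7.60 over a median of 8.31 to 9.03, and its cecal signals from 5.92 over 6.96 to 7.45. Every jejunal array therefore stood above every cecal array, which was so for 1 of 28 carriers and for 1.73% of all probe sets in this direction. No carrier (0 of 28) was free of overlap towards the cecum, as 1.22% of all probe sets were. The means were 8.27 ± 0.42 in the jejunum and 6.92 ± 0.38 in the cecum (SD, n = 19 birds). They differed by 1.35 (SE 0.126), or 2.55-fold, at an adjusted p of 4.3e-12 in limma. Between single birds the difference ranged from 0.46 to 2.14, the largest being that of bird 3, whose cecal array had the lowest *SLC25A16* signal of all.

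The second coenzyme A carrier measured, *SLC25A42*, went the same way at a smaller size. Jejunal log2 signals lay between 4.78 and 6.11 with a median of 5.63, and cecal ones between 4.74 and 5.38 with a median of 5.09. Of the jejunal arrays, 15 of 19 were above the highest cecal array, and the jejunum was higher in 18 of 19 birds. The difference was 0.54 (SE 0.0825, FCR 1.45, adjusted p = 5.7e-07 from limma). Among 4 measured genes listed under coenzyme A synthesis, 2 passed towards the jejunum (20.1% of all probe sets did), 0 towards the cecum (25.1% did), and none was a DET. The 2 were the pantothenate kinase *PANK1* (difference 0.70, adjusted p = 1.4e-09, 18 of 19 birds) and its relative *PANK4* (difference 0.26, adjusted p = 7.1e-04, 15 of 19 birds). *PANK4* was listed by its name, and whether it takes part in the synthesis was not tested. Neither *PANK2* (difference 0.08, adjusted p = 0.362 from limma) nor *PPCS* (difference -0.19, adjusted p = 0.107) was called.

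Other cofactor carriers parted from these. *SLC25A32*, which carries folate or FAD, was lower in the jejunum, with log2 signals from 4.32 to 5.63 (median 4.78) there and from 4.81 to 6.08 (median 5.19) in the cecum. Its difference was -0.43 (SE 0.119, adjusted p = 0.0027 from limma), and the cecum was higher in 14 of 19 birds. Folate enzymes, which load and move single-carbon units, were also on the cecal side. Of 6 measured members, 0 were called towards the jejunum (20.1% of all probe sets), 5 towards the cecum (25.1%) and none was a DET. Examples are cytosolic *MTHFD1* (difference -0.77, adjusted p = 1.0e-07) and mitochondrial *MTHFD2* (difference -0.58, adjusted p = 5.9e-07). *SLC25A26*, the importer of S-adenosylmethionine, had means of 5.99 ± 0.16 in the jejunum and 5.93 ± 0.20 in the cecum (SD, n = 19), and its difference of 0.05 had a 95% interval of -0.07 to 0.18 (adjusted p = 0.532). Over the 4 cofactor carriers, 2 were higher in the jejunum (20.1% of all probe sets), 1 in the cecum (25.1%) and 1 passed neither way.

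Amino acid carriers were split between the tissues, and the glutamate carrier *SLC25A22* was the DET among them. It brings glutamate into the matrix together with protons. Its log2 signal ran from 6.96 to 8.26 in the jejunum with a median of 7.67, and from 6.20 to 7.06 in the cecum with a median of 6.50. Of the jejunal arrays, 18 of 19 exceeded the highest cecal one, the exception being that of bird 5 (6.96). The means were 7.72 ± 0.36 and 6.57 ± 0.24 (SD, n = 19) in jejunum and cecum. This is a difference of 1.15 (SE 0.0986), or 2.22-fold, at an adjusted p of 3.8e-13 in limma. In all 19 birds the jejunum was higher, by 0.44 to 1.80. Glutamine synthetase (*GLUL*), which makes glutamine from glutamate and was the only measured member of its list, had a mean log2 signal of 9.69 ± 1.17 in the jejunum and 6.37 ± 0.43 in the cecum (FCR 9.96, adjusted p = 7.2e-14).

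*SLC25A13*, which exports aspartate against glutamate for the malate-aspartate shuttle, was lower in the jejunum. It had log2 signals of 6.33 to 7.76 (median 7.22) in the jejunum and of 7.23 to 8.04 (median 7.69) in the cecum, and 10 of 19 jejunal arrays lay under the lowest cecal array. Its difference was -0.48 (SE 0.104, adjusted p = 1.4e-04 from limma). The cecum was the higher one in 16 of 19 birds, and bird 19 had the largest difference of all (-1.37). Of the 3 measured shuttle enzymes the mitochondrial aspartate aminotransferase *GOT2* was lower in the jejunum in 19 of 19 birds (difference -0.98, adjusted p = 1.3e-13), just under the threshold of a 2-fold change. Its cytosolic partner *GOT1* had a difference of 0.02 (adjusted p = 0.78) and *MDH2* one of 0.21 (adjusted p = 0.11).

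*SLC25A15*, which exchanges ornithine for citrulline, was lower in the jejunum of all 19 birds. Jejunal log2 signals were between 3.85 and 5.18 (median 4.46) and cecal signals between 4.77 and 5.38 (median 5.09), so that 15 of 19 jejunal arrays were below the lowest cecal one. This gave a difference of -0.57 (SE 0.0899, 1.48-fold to the cecal side, adjusted p = 1.2e-06 from limma). Birds excrete nitrogen as uric acid. In mammals, citrulline serves the synthesis of arginine, and ornithine that of proline and polyamines, among other uses. How far this holds in the chicken gut was not tested. Among 9 measured genes of ornithine, citrulline and proline metabolism, 0 were DETs on the jejunal side and 3 on the cecal side (3.68% and 3.62% of all probe sets). The cecal signal was 3.28-fold that of the jejunum for *ASL*, which releases arginine from argininosuccinate (adjusted p = 2.2e-15), 2.61-fold for *ASS1*, which makes argininosuccinate from citrulline (adjusted p = 1.1e-08), and 2.10-fold for the nitric oxide synthase *NOS2* (adjusted p = 3.2e-06). Without a minimum FCR, 1 was called towards the jejunum and 4 towards the cecum (20.1% and 25.1% of all probe sets). *CPS1*, which makes carbamoyl phosphate in mitochondria, was the jejunal one (difference 0.31, adjusted p = 0.00534, 16 of 19 birds). Its means of 3.57 ± 0.29 in the jejunum and 3.26 ± 0.28 in the cecum (SD, n = 19) are low for these arrays. The proline synthesis enzyme *ALDH18A1* was lower in the jejunum in 19 of 19 birds, by less than 2-fold (difference -0.66, adjusted p = 7.0e-11). The 4 members called neither way were *OAT* (means 7.10 and 6.94 in jejunum and cecum), *PRODH* (4.84 and 5.01), *ARG2* (2.94 and 2.83) and *OTC* (2.29 and 2.27). The signals of *ARG2* and *OTC* are low for these arrays.

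*SLC25A38*, which brings glycine in for heme synthesis, differed little, by 0.22 (SE 0.0645, adjusted p = 0.00442 from limma). Its jejunal signal was higher in 15 of 19 birds and tied in 2, and single differences ran from -0.15 to 0.65. The carrier of basic amino acids *SLC25A29* had a difference of -0.18 (95% interval -0.36 to 0.00, adjusted p = 0.102). A further probe set of this gene gave 0.17 (95% interval 0.01 to 0.32, adjusted p = 0.0771), so *SLC25A29* has no settled direction. Both of its probe sets had means under 5 in both tissues.

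*SLC25A20*, the carnitine-acylcarnitine carrier that takes long-chain fatty acids into the matrix for oxidation, was higher in the jejunum. Its log2 signals lay between 7.27 and 8.24 (median 7.93) in the jejunum and between 6.87 and 7.47 (median 7.20) in the cecum. Here too 18 of 19 jejunal arrays exceeded the highest cecal array. The means were 7.91 ± 0.24 and 7.22 ± 0.17 (SD, n = 19) in jejunum and cecum, apart by 0.69 (SE 0.0707, 1.61-fold, adjusted p = 6.0e-11 from limma) and so short of a DET. The jejunum was higher in 18 of 19 birds, and the exception was bird 19 (difference -0.13). Genes that load acyl groups onto carnitine, take carnitine up or make it (the carnitine shuttle list) lay on the same side. Against 20.1% and 25.1% of all probe sets, 6 of these 8 were called towards the jejunum and 0 towards the cecum. The DETs among them were carnitine octanoyltransferase *CROT*, a peroxisomal enzyme (FCR 3.21, adjusted p = 2.9e-15), and carnitine acetyltransferase *CRAT* (FCR 2.01, adjusted p = 3.0e-09). The inner membrane enzyme *CPT2*, which works next to *SLC25A20*, had a difference of 0.46 (adjusted p = 6.5e-04), and *CPT1A* one of 0.33 (adjusted p = 0.018).

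Carriers of di- and tricarboxylates had 0 of 3 members called towards the jejunum (20.1% of all probe sets) and 1 towards the cecum (25.1%). That was *SLC25A21*, the carrier of 2-oxoadipate from lysine and tryptophan breakdown, which had the largest difference towards the cecum of the family. Its log2 signals were from 2.33 to 3.41 (median 2.82) in the jejunum and from 3.04 to 4.21 (median 3.66) in the cecum, and the cecum was higher in 19 of 19 birds. The difference was -0.81 (SE 0.0913, adjusted p = 6.3e-10 from limma), the cecal signal being 1.75-fold the jejunal one, and 16 of 19 jejunal arrays were below the lowest cecal one. Its means of 2.85 ± 0.25 and 3.66 ± 0.31 (SD, n = 19) are low for these arrays, where fold changes are often compressed.

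The citrate carrier *SLC25A1*, which exports citrate for fatty acid synthesis, had a difference of -0.03 (95% interval -0.28 to 0.21, adjusted p = 0.856), and its sign turned when arrays were centred on their median. Against 3.62% of all probe sets, 2 of 4 genes that use citrate products in the cytosol were DETs of the cecum. These were fatty acid synthase *FASN* (2.46-fold, adjusted p = 4.8e-14) and malic enzyme *ME1* (2.29-fold, adjusted p = 2.7e-07). *SLC25A10*, which exchanges dicarboxylates for phosphate, had means of 7.10 ± 0.19 in the jejunum and 7.28 ± 0.24 in the cecum (SD, n = 19). Its difference of -0.17 (SE 0.0732, 14 of 19 birds higher in the cecum) had an adjusted p of 0.0519 from limma, and blocking on the bird brought it to 0.0479. A probe set shared by *MRPL12* and *SLC25A10* had a difference of -0.54 (adjusted p = 8.1e-06). Of 13 measured enzymes of the citric acid cycle, which these carriers supply and drain, 1 was called towards the jejunum (*SDHA*, difference 0.31) and 5 towards the cecum, all under 2-fold. Over all probe sets, 20.1% and 25.1% were called in these directions.

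Of the 5 carriers of adenine nucleotides and phosphate, 2 were called towards the jejunum, 2 towards the cecum and 1 neither way (20.1% and 25.1% of all probe sets were called). The ADP/ATP carriers bring spent ADP in and newly made ATP out. *SLC25A6* was higher in the jejunum, with log2 signals from 11.12 to 12.10 (median 11.83) in the jejunum and from 10.65 to 12.00 (median 11.44) in the cecum, a difference of 0.37 (SE 0.0924, adjusted p = 9.6e-04 from limma, 17 of 19 birds). *SLC25A4*, the ADP/ATP carrier best known from muscle, was lower in the jejunum, with signals from 4.03 to 5.03 (median 4.60) in the jejunum and from 4.33 to 5.37 (median 5.00) in the cecum, a difference of -0.39 (SE 0.0987, adjusted p = 9.8e-04, 15 of 19 birds). Its means, 4.54 in the jejunum and 4.93 in the cecum, were under 5 in both tissues. A probe set that the annotation gives to both *SLC25A5* and *SLC25A6* differed by -0.76 (adjusted p = 3.7e-10), with 19 of 19 birds on the cecal side, opposite to the *SLC25A6* probe set. These genes are close copies, and how far a probe set reads only 1 of them was not tested. The *SLC25A6* probe set has no gene ID and is named by its platform symbol only. The cause of the opposite directions was not tested either, so the direction of *SLC25A6* is uncertain.

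The ATP-Mg/phosphate carriers, which set the size of the matrix nucleotide pool under control of calcium, were also split. *SLC25A24* had jejunal log2 signals from 6.88 to 8.60 (median 8.21) and cecal signals from 6.82 to 8.13 (median 7.45), a difference of 0.57 (SE 0.129, FCR 1.49, adjusted p = 2.8e-04 from limma). It was the more variable of the pair, with the jejunum higher in 15 of 19 birds and single differences from -0.70 in bird 19 to 1.65 in bird 3. *SLC25A25* was lower in the jejunum in 17 of 19 birds, by 0.28 on average (SE 0.0813, adjusted p = 0.00421). *SLC25A3*, which brings in phosphate for ATP synthesis and copper for cytochrome oxidase, had means of 9.60 ± 0.26 and 9.73 ± 0.26 in jejunum and cecum (SD, n = 19), a difference of -0.13 with a 95% interval of -0.30 to 0.04 (adjusted p = 0.232).

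The pyrimidine nucleotide carriers supply the building blocks of mitochondrial DNA and RNA. *SLC25A36* was higher in the jejunum (difference 0.34, SE 0.116, adjusted p = 0.0153 from limma, 14 of 19 birds), and *SLC25A33* had a difference of 0.04 (95% interval -0.12 to 0.21, adjusted p = 0.723).

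Iron and glutathione carriers, which serve heme and iron-sulfur cluster synthesis and the redox state of the matrix, had 0 of 4 members called towards the jejunum and 1 towards the cecum, a share about that of all probe sets (25.1%). The glutathione carrier *SLC25A39* was lower in the jejunum, with log2 signals of 7.20 to 7.94 (median 7.54) against 7.40 to 9.22 (median 7.92) in the cecum, a difference of -0.43 (SE 0.100, adjusted p = 4.0e-04 from limma, 16 of 19 birds). The highest cecal *SLC25A39* signal (9.22) was that of bird 3, and without its cecal array the difference was -0.36 (adjusted p = 1.5e-04). Its paralog *SLC25A40* had mean signals of 2.19 and 2.08 in jejunum and cecum and differed by 0.11 (95% interval -0.07 to 0.28). Mitoferrin 1 (*SLC25A37*), the iron importer of red blood cell precursors, had a difference of 0.20 (adjusted p = 0.105), and mitoferrin 2 (*SLC25A28*), that of other cells, one of -0.09 (95% interval -0.23 to 0.04, adjusted p = 0.263). *SLC25A37* passed once the cecal array of bird 3 was left out (difference 0.25, adjusted p = 0.022). Markers of nucleated red blood cells, which chickens keep in their blood, had 1 of 9 members called, where 45.2% of all probe sets were. It was the transferrin receptor *TFRC*, a DET higher in the cecum (FCR 3.78, 3.62% of all probe sets) that dividing cells also express. Uncalled members included *HBAD*, with means of 6.94 and 6.95 in jejunum and cecum, and low ones such as *RHAG* (2.98 and 2.94). Of 14 measured genes of heme and iron-sulfur cluster synthesis, 4 were called towards the jejunum (20.1% of all probe sets) and 5 towards the cecum (25.1%), with 0 DETs.

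*SLC25A48* was the third DET and the carrier with the widest spread among birds in the jejunum. Its means were under 5 in both tissues, which is low for these arrays. Its jejunal log2 signals ran from 3.53 over a median of 4.76 to 6.47, and its cecal signals from 3.18 over 3.54 to 4.15. Of the jejunal arrays, 12 of 19 were above every cecal array while the lowest lay within the cecal range. The means were 4.63 ± 0.78 and 3.62 ± 0.29 (SD, n = 19) in jejunum and cecum, 1.01 apart (SE 0.181, 2.01-fold, adjusted p = 9.8e-06 from limma). Bird 19 had the highest jejunal signal (6.47) and a difference of 2.86, the largest for any carrier in any bird, and without its jejunal array the difference was 0.91, short of 2-fold. Leaving out bird 2, 11, 12, 13, 15, 18 or 19 gave differences of 0.91 to 0.99, each also just short of 2-fold, and the jejunum was higher in 18 of 19 birds.

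The other 2 unassigned carriers differed less. *SLC25A46*, an outer membrane member of the family that takes part in shaping mitochondria, was higher in the jejunum of 19 of 19 birds. It had log2 signals of 6.43 to 7.59 (median 7.00) in the jejunum and of 5.56 to 6.94 (median 6.46) in the cecum. It differed by 0.57 (SE 0.0915, FCR 1.48, adjusted p = 1.6e-06 from limma). *SLC25A43* had a difference of 0.14 (95% interval -0.04 to 0.32, adjusted p = 0.205). *SLC25A30*, a relative of the uncoupling proteins, was lower in the jejunum (difference -0.45, SE 0.121, adjusted p = 0.00197, 17 of 19 birds).

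**Figure D2:**
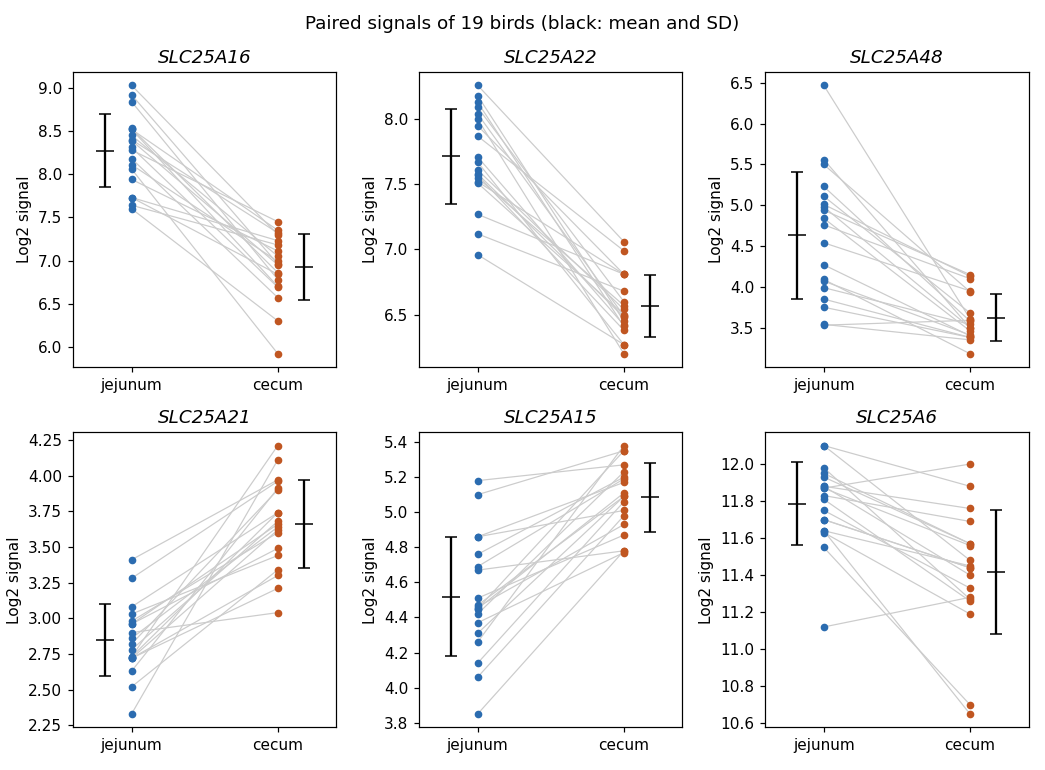
Log2 signals (y axis, own scale for each gene) of 6 carriers in the jejunum (left) and the cecum (right), with lines joining the arrays of a bird and black bars for mean and SD (n = 19). *SLC25A16* is the carrier without overlap between tissues, *SLC25A48* has a single jejunal array at 6.47, and *SLC25A21* and *SLC25A15* are higher in the cecum of every bird.

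Bird by bird, between 10 and 19 of the 28 carriers were higher in the jejunum (median 14), so no bird had its carriers on 1 side. The median difference over the carriers of a bird was between -0.12 (bird 19) and 0.33 (bird 1). Carriers that held their direction in all 19 birds were *SLC25A16*, *SLC25A22* and *SLC25A46* towards the jejunum, 3 of 28 where 4.91% of all probe sets did so, and *SLC25A15* and *SLC25A21* towards the cecum, 2 of 28 where 4.69% did so. By substrate, 2 of 4 cofactor carriers had nearly all birds on the jejunal side (*SLC25A16* 19 and *SLC25A42* 18 of 19), while *SLC25A32* had 14 of 19 on the cecal side. Of the 3 di- and tricarboxylate carriers, *SLC25A21* had all 19 birds on the cecal side, *SLC25A10* 14 and *SLC25A1* 11. Among amino acid carriers, *SLC25A22* and *SLC25A15* had all 19 birds on opposite sides. Birds 3 and 19 lay at opposite ends for *SLC25A20* (1.20 in bird 3 and -0.13 in bird 19), for *SLC25A24* (1.65 and -0.70) and for *SLC25A13* (0.25 and -1.37).

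**Figure D3:**
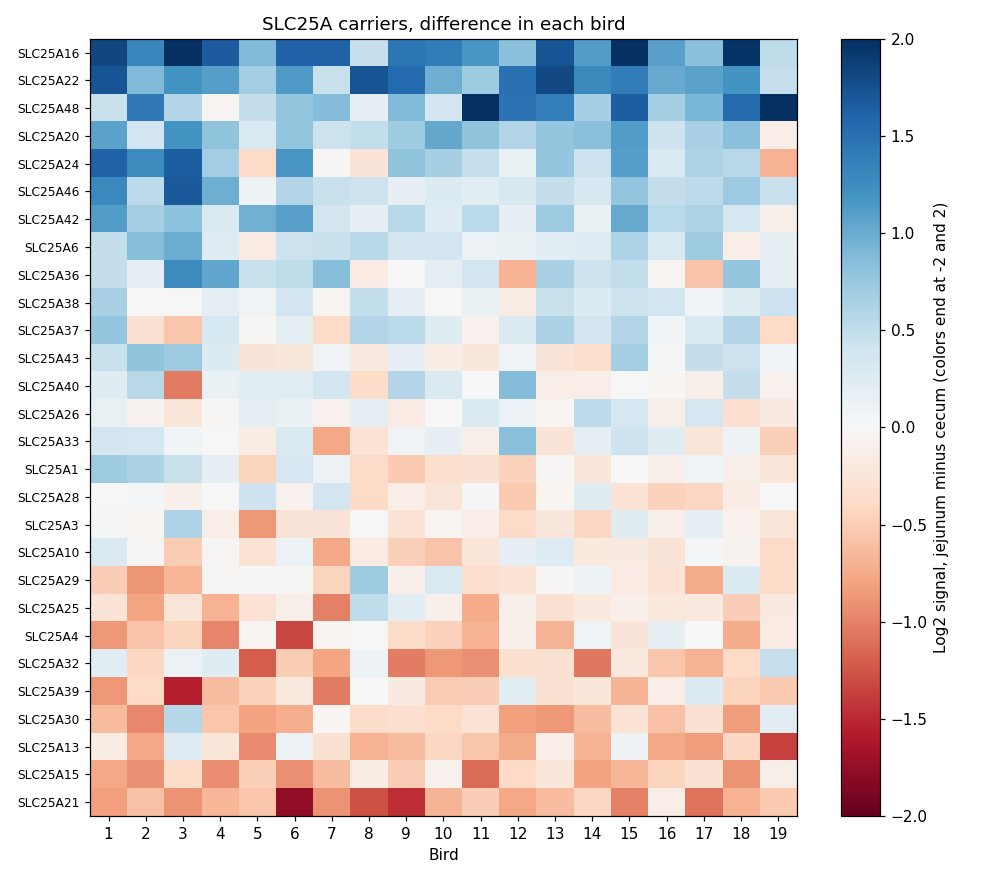
Difference in log2 signal (jejunum minus cecum, color) of each carrier (rows, ordered by mean difference) in each of the 19 birds (columns). The upper rows are blue and the lowest rows red across nearly all birds, while the middle rows, where 10 carriers passed neither way, change sign from bird to bird.

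Whether a bird with a high signal in the jejunum also had a high signal in the cecum was tested over the 19 birds for every probe set. Of the carriers, 0 of 28 passed at an adjusted p under 0.05 (permutation test with 100000 permutations, two-sided, adjusted over all probe sets), where 0.12% of all probe sets passed, and with Spearman's rho also 0 of 28. At an unadjusted p under 0.05 there were 2 of 28 with Pearson's r (9.24% of all probe sets) and 5 of 28 with rho (10.1% of all probe sets). The highest correlations were those of *SLC25A1* (r = 0.55, permutation p = 0.0134, adjusted p = 0.362, rho = 0.60 with p = 0.00735 and adjusted p = 0.297, r without the 2 birds farthest from the jejunal median 0.53) and *SLC25A6* (r = 0.51, permutation p = 0.0331, adjusted p = 0.48, rho = 0.60 with p = 0.00712 and adjusted p = 0.292, r without those 2 birds 0.53). The 28 values of r had a median of 0.12, and the median over all probe sets was 0.11. For *SLC25A16*, *SLC25A22* and *SLC25A48* r was 0.22, 0.14 and 0.41, with adjusted p of 0.842, 0.908 and 0.609.

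Other transport genes of mitochondria also went both ways. Family members under other symbols (*MTCH1*, *MTCH2* and *UCP3*) and the 3 measured genes of the outer membrane list (*VDAC1*, *VDAC3* and *TSPO2*) had 0 calls, with differences between -0.17 and 0.13. Among 13 inner membrane transporters outside the family, 3 were DETs of the jejunum and 1 was a DET of the cecum (3.68% and 3.62% of all probe sets). On the jejunal side were the serine transporter sideroflexin *SFXN1* (FCR 2.58, adjusted p = 7.6e-13), the calcium uniporter pore *MCU* (FCR 2.07, adjusted p = 3.9e-11) and the sodium-calcium exchanger *SLC8B1* (FCR 2.07, adjusted p = 8.5e-12). On the cecal side was the sideroflexin *SFXN5*, with means of 5.10 ± 0.23 in the jejunum and 7.80 ± 0.47 in the cecum (SD, n = 19, 6.50-fold to the cecal side, adjusted p = 6.5e-23). Of the genes that import and insert carrier proteins, 0 of 10 were called towards the jejunum and 7 towards the cecum, all under 2-fold, where 20.1% and 25.1% of all probe sets were called in these directions. Examples are the translocase core *TIMM22*, through which carriers enter the inner membrane (difference -0.48, adjusted p = 2.1e-08), and its chaperone *TIMM10* (difference -0.42, adjusted p = 5.9e-06), both with 18 of 19 birds on the cecal side. The 3 uncalled members were *TOMM70* (difference -0.04, adjusted p = 0.791 from limma), *AGK* (0.01, adjusted p = 0.925) and *TOMM5* (-0.17, adjusted p = 0.0787). Of 10 genes of general mitochondrial content, 2 were called towards the jejunum and 6 towards the cecum, with 0 DETs.

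**Figure D4:**
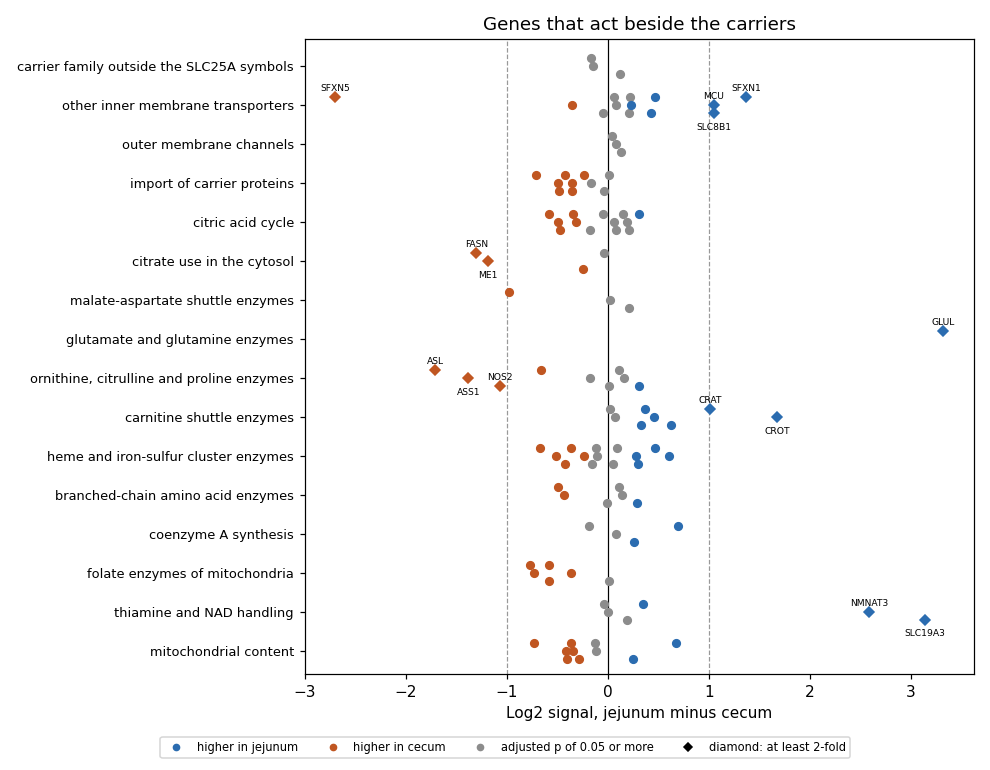
Difference in log2 signal (x axis, jejunum minus cecum) of single genes in the lists of genes that act beside the carriers (rows, spread vertically for legibility only); diamonds with names are DETs. Carnitine shuttle genes lie right of 0 or close to it, folate and import genes left of 0 or close to it, and the farthest point on the left is *SFXN5* at -2.70.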

How the data were processed

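The authors deposited normalized log2 signals, rounded to 2 decimals, for 18308 probe sets on 38 arrays. The Transcriptome Analysis Console was the authors' software, and how signals were background-corrected, normalized and summarized is not given in the sources used here. Medians of the arrays lay between 5.57 and 5.75, and signals between 0.85 and 13.8. Arrays give no read depth, and their number limits the precision. Symbols came from the platform annotation (1 symbol for 12300 probe sets, several for 256, none for 5752), and 26 of the 28 carriers also had a gene ID found in the RefSeq table of the GRCg7b assembly. The probe sets of *SLC25A6* and *SLC25A25* have no gene ID in the platform annotation, so these carriers are named by its symbol only. Jejunum and cecum were set against each other in limma 3.58.1 under R 4.3.3, with tissue as the only term. Correlations over birds, counts and plots were made with numba 0.67.0, numpy 2.4.6, matplotlib 3.10.9 and pandas 2.3.3 under Python 3.11.15. The limma fit and the correlation screen were tested on simulated data with known changes.

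The carriers, their substrate groups and the lists of other genes were chosen by hand with earlier results of these data known. Every carrier was named, and DETs of the other lists, up to 3 per list. Genes of those lists under 2-fold were named after their values were seen. The numbers pair the samples because the titles name the same bird in both tissues. The labels' protocol text counts 38 birds, however, and their description names the oxyntic (stomach) mucosa for every sample. The paper reports 38 samples from the jejunum and cecum of 19 subjects. Which arrays share a bird is given by the titles only, so all values by bird rest on the titles. Deviations from the tissue mean had a mean correlation of 0.114 within a bird (range -0.133 to 0.411, positive for 14 of 19 birds). The mean for different birds, -0.006, follows largely from this value and the centring on the tissue mean, so it is no independent reference. Alternatives were the bird as a block, quantile normalization, median centring, a filter on low signals (a mean of at least 5 in either tissue, 11718 probe sets kept), array weights, averaging the probe sets of each gene, Spearman's rho in place of Pearson's r, TREAT against a 2-fold change, leaving out each bird in turn, and leaving out birds 3 and 19. Leaving out the jejunal array of bird 19 or the cecal array of bird 3, and the other *SLC25A29* probe set, were added after seeing the data. An item withheld for evaluation is not reported here.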

Additional observations from a re-analysis of the deposited data

How the results depend on the processing

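Against a null difference of 2-fold (TREAT), 0 carriers remained in either direction, so at an adjusted p under 0.05 over all probe sets none was shown to differ by more than 2-fold. The 95% interval of *SLC25A16* (1.09 to 1.60) lay above 2-fold (1 on the log2 scale), and those of *SLC25A22* and *SLC25A48* held it. Counting the main fit but not TREAT, *SLC25A16* and *SLC25A22* were DETs in 29 of 29 settings. *SLC25A48* was a DET in 18 of 28 (array weights gave 0.97, and without birds 3 and 19 it was 0.93). With each bird left out in turn there were 2 to 3 DETs of the jejunum and 0 of the cecum, and at any fold 10 to 11 carriers higher in the jejunum and 8 to 9 in the cecum. The bird as a block changed 1 call, that of *SLC25A10* (adjusted p = 0.048), and gave 10 and 9 carriers at any fold. *SLC25A10* also passed with quantile normalization (adjusted p = 0.033), array weights (0.036), the filter on low signals (0.04) and 6 of 19 fits without a bird. *SLC25A29* passed with array weights (adjusted p = 0.047) and without bird 8 (0.027), and array weights gave 11 and 10 carriers at any fold. The shares of all probe sets (20.1% and 25.1% at any fold) were counted in the main fit only. Carrier counts in the other settings therefore have no matching share, and whether all probe sets moved with them was not tested. The sign turned for *SLC25A1* with median centring (0.02) and array weights (0.0021), for *SLC25A33* without 1 bird (range -0.0028 to 0.09), and for *SLC25A29* with its other probe set (0.17), all short of the threshold in these settings and as reported. *SLC25A37* passed the threshold with median centring (0.25, adjusted p = 0.044), with array weights (adjusted p = 0.017) and without birds 3 and 19 (0.28, adjusted p = 0.012). The filter on low signals left out 6 carriers, *SLC25A48* among them. The cause of these changes was not tested.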

Other observations

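Of 6 measured genes of thiamine and NAD handling, 3 were called towards the jejunum, 0 towards the cecum. Over all probe sets, 20.1% and 25.1% were called in these directions. The plasma membrane thiamine transporter *SLC19A3* had a mean log2 signal of 6.92 ± 0.75 in the jejunum and 3.78 ± 0.35 in the cecum (SD, n = 19, FCR 8.80, adjusted p = 1.5e-18 from limma). The mitochondrial NAD synthesis enzyme *NMNAT3* had 6.33 ± 0.63 and 3.74 ± 0.43 in jejunum and cecum (FCR 6.01, adjusted p = 5.4e-17). For both genes 19 of 19 birds lay on the jejunal side. The relative *SLC19A2* had a difference of -0.04 (adjusted p = 0.721), and *NMNAT2* had means of 4.69 and 4.70 in jejunum and cecum (adjusted p = 0.974). Of 6 enzymes of branched-chain amino acid breakdown, 1 was called towards the jejunum (*MCCC1*, difference 0.29) and 2 towards the cecum (*BCAT1*, difference -0.49, and *BCKDHB*, difference -0.43), all under 2-fold.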
